A study of Homo sapiens with 2 samples.

Results

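The insulin-like growth factor (IGF) system of blood-generating heart-forming organoids (BG-HFOs) was described here through 10 of the 36601 genes counted: the ligands *IGF1* and *IGF2*, the imprinted RNA *H19* and the binding proteins *IGFBP1* to *IGFBP7*. The genes were chosen by name, and all 10 had an entry in both organoids. Each was followed through 7 lineages of cells that were set apart by raw UMIs (unique molecular identifiers, 1 per captured molecule) of *HBZ* for erythroid cells, *PF4* for megakaryocytes, *PTPRC* for leukocytes, *CDH5* for endothelial cells, *MYH6* for cardiomyocytes, *COL3A1* for mesenchymal cells and *AFP* for posterior foregut endoderm.

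The study made BG-HFOs from the human embryonic stem cell line hES3 NKX2.5-eGFP, which carries a green fluorescent reporter at the cardiac gene *NKX2-5*. Aggregates were embedded in Matrigel, the WNT pathway was first activated and then inhibited, and cytokines that favour blood and vessels were added. Recombinant IGF-1 protein was among the additives in the later medium of both organoids, and it does not enter the counts of the *IGF1* transcript. Single cells of 2 organoids, 32.7 and 33.10, were sequenced on day 14 from the 3′ end of transcripts, both from 1 line, with the same treatment and with no untreated control, so that lineages and not treatments were compared.

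Organoid 32.7 gave 191152562 UMIs in 16866 barcodes and organoid 33.10 gave 233818881 UMIs in 19948 barcodes, of which 16792 and 19893 passed the cell filter, and 100 barcode sequences occurred in both libraries. A single gate was passed by 58.25% and 59.59% of the cells, more than 1 gate by 11.79% and 12.76%, and none by 29.96% and 27.65%. The endoderm gate held 126 cells in organoid 32.7 but 9 cells, with 165317 UMIs, in organoid 33.10, whereas the sums of the other 6 lineages held between 6931819 and 45276172 UMIs. Every endoderm value of organoid 33.10 rests on those 9 cells. All 5 defining markers were found in each gated lineage. Markers of other lineages were also present in some gates: the 5 mesenchymal markers stood at 10.8% and 15.1% of their own level in cardiomyocytes, the 5 endothelial markers at 24.1% and 26.1% in megakaryocytes and 16.0% in mesenchymal cells of both organoids, and the erythroid markers at 22.7% and 29.1% in megakaryocytes. Their part in the results was not tested.

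IGF-1 and IGF-2 are small secreted hormones that resemble insulin. Both signal through the receptor tyrosine kinase *IGF1R* and, for IGF-2, a form of the insulin receptor, while *IGF2R* takes IGF-2 into the cell for breakdown. Binding proteins hold the ligands in tissue fluid, lengthen their life or keep them from the receptor, and proteases such as *PAPPA* cut the binding proteins and free the ligand. *IGF2* is the main ligand before birth, is read from the paternal allele and shares a chromosomal domain with *H19*, a non-coding RNA read from the maternal allele.

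The ligand *IGF2* was highest in the mesenchyme in both organoids. Levels are given as CPM (UMIs of a gene per 1000000 UMIs of a lineage) and were compared between lineages and not between genes. In mesenchymal cells *IGF2* stood at 292 CPM in organoid 32.7 and 300.3 CPM in organoid 33.10, from 13222 and 13338 UMIs. The AFP-gated endoderm followed with 285 and 90.7 CPM, the latter value from 9 cells.

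Endothelial cells held 21.0 and 47.3 CPM of *IGF2* and cardiomyocytes 12.4 and 13.8 CPM. The blood lineages were lowest, with 10.4 and 9.69 CPM in megakaryocytes, 9.36 and 6.22 CPM in erythroid cells and 2.25 and 1.88 CPM in leukocytes. No pair of neighbours in this order overlapped between the organoids. Against the mean of the other 6 lineages, *IGF2* was higher in mesenchymal cells by 4.04 on the log2 scale (SE 0.21, edgeR adjusted p = 9.08e-09) and in the endoderm by 3.57 (SE 0.29, edgeR adjusted p = 1.72e-06), with the same direction in both organoids. It was lower in leukocytes by a log2 difference of -3.98 (SE 0.43, edgeR adjusted p = 5.52e-06) and in cardiomyocytes by -1.19 (SE 0.31, edgeR adjusted p = 0.00583). Erythroid cells (-1.52, SE 0.33, edgeR adjusted p = 0.00172) and megakaryocytes (-1.31, SE 0.32, edgeR adjusted p = 0.00408) were lower as well. The difference in endothelial cells, 0.40 (SE 0.26), did not pass (edgeR adjusted p = 0.235, range over the alternatives 0.000789 to 0.963), and the organoids themselves differed more there than in any other lineage except the endoderm. None of the lower calls held under every alternative. When 10% of each sum was removed in proportion to the profile of its whole library, the leukocyte call was lost (edgeR adjusted p = 1, range over the alternatives 8.87e-22 to 1) and the cardiomyocyte difference turned to 1.46 (edgeR adjusted p = 0.437, range 0.000132 to 0.437). The removal took more UMIs of *IGF2* than leukocytes and erythroid cells held and left them none. A fit on such sums cannot show whether these lower calls hold. The cardiomyocyte call was also lost when cells of more than 1 gate were assigned (-0.56, edgeR adjusted p = 0.0518) and with the endoderm left out of the fit (-0.62, edgeR adjusted p = 0.0558).

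Most mesenchymal cells carried *IGF2*. A UMI of the gene was found in 80.1% and 80.4% of them, and in 47.8% and 49.6% once every cell had been thinned to 2500 UMIs. In leukocytes, which were deeper (median 17839.5 and 16553 UMIs per cell against 10709 and 10687.5), the shares were 4.12% and 3.02% before thinning and 0.444% and 0.615% after it. The level in leukocytes was 0.770% and 0.625% of that in mesenchymal cells, near the 0.988% and 0.667% found there for the collagen gene *COL1A1*. The collagen gene *COL1A2* stood at 1.61% and 1.36% there. In endothelial cells *IGF2* reached 7.20% and 15.8% of the mesenchymal level, where *COL1A1* stood at 1.04% and 1.57% and *COL1A2* at 5.15% and 5.70%. Cardiomyocytes reached 4.24% and 4.60% for *IGF2*, below *COL1A1* (6.42% and 6.77%) and *COL1A2* (12.7% and 18.4%). Erythroid cells reached 3.21% and 2.07% (*COL1A1* 3.37% and 1.68%, *COL1A2* 3.62% and 2.30%). Megakaryocytes reached 3.55% and 3.23% (*COL1A1* 2.87% and 2.79%, *COL1A2* 3.36% and 3.98%). Free RNA was not removed from these counts, and its part in the low values was not tested.

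The count of *IGF2* itself carries an overlap. On GRCh38 the gene (ENSG00000167244) lies on the minus strand at chr11:2129112-2158391, and the transcript *AC132217.1* (ENSG00000240801, chr11:2129121-2129964, same strand) ends 9 bases from its 3′ end, with all 373 exonic bases inside *IGF2* exons. *AC132217.1* stood at 60.3 and 59.9 CPM in mesenchymal cells, 56.0 and 24.2 CPM in the endoderm and 9.16 and 20.0 CPM in endothelial cells, in the order of *IGF2*. Reads from the shared exons cannot be told apart, so that the level of *IGF2* is uncertain. The order of these 3 lineages was the same for both entries, which is no separate evidence, since the entries share those exons. *IGF2-AS*, on the opposite strand at chr11:2140501-2148666, stood at 26.6 and 22.0 CPM in mesenchymal cells and at no more than 1.41 CPM in the other lineages apart from the endoderm (17.5 and 0 CPM). *INS-IGF2*, which joins *IGF2* to the insulin gene, was not analysed here.

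*IGF1* (chr12:102395874-102481744), the ligand that growth hormone raises in the liver after birth, was scarce in all lineages. Mesenchymal cells held 3.82 and 4.34 CPM, from 173 and 193 UMIs. Cardiomyocytes held 1.66 and 0.760 CPM, endothelial cells 0.874 and 0.783 CPM, and the blood lineages between 0.0800 and 0.528 CPM. Mesenchymal *IGF1* was higher than the mean of the other lineages by 2.35 on the log2 scale (SE 0.26, edgeR adjusted p = 8.36e-06, in both organoids). The endoderm gave 5.85 CPM from 7 UMIs in organoid 32.7 and no UMI in organoid 33.10, where a count of 0 allows up to 18.1 CPM, so the call there (log2 difference 2.69, edgeR adjusted p = 0.0144) rests on organoid 32.7 and was -2.97 from organoid 33.10 alone. Endothelial cells and cardiomyocytes overlapped in level, and neither passed the test for *IGF1* (edgeR adjusted p = 0.5 and 0.54).

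*H19* (chr11:1995166-2004552) was counted rarely. It lies 124.559 kb from *IGF2*. Mesenchymal cells held 20 and 16 UMIs of *H19*, where those of *IGF2* numbered 13222 and 13338, and the capture of these transcripts may differ. The level was 0.442 CPM (95% Poisson interval 0.270 to 0.682) and 0.360 CPM (0.206 to 0.585), intervals that cover counting error only. A UMI of *H19* was found in 0.170% and 0.0590% of the thinned mesenchymal cells. Outside the mesenchyme 4 UMIs were counted in all gated cells, 3 of them in cardiomyocytes and 1 in erythroid cells, and none in endothelial cells, where 0 counts allow up to 0.0971 CPM in organoid 32.7. *H19* was too low for the filter and was not tested.

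**Figure D1:**
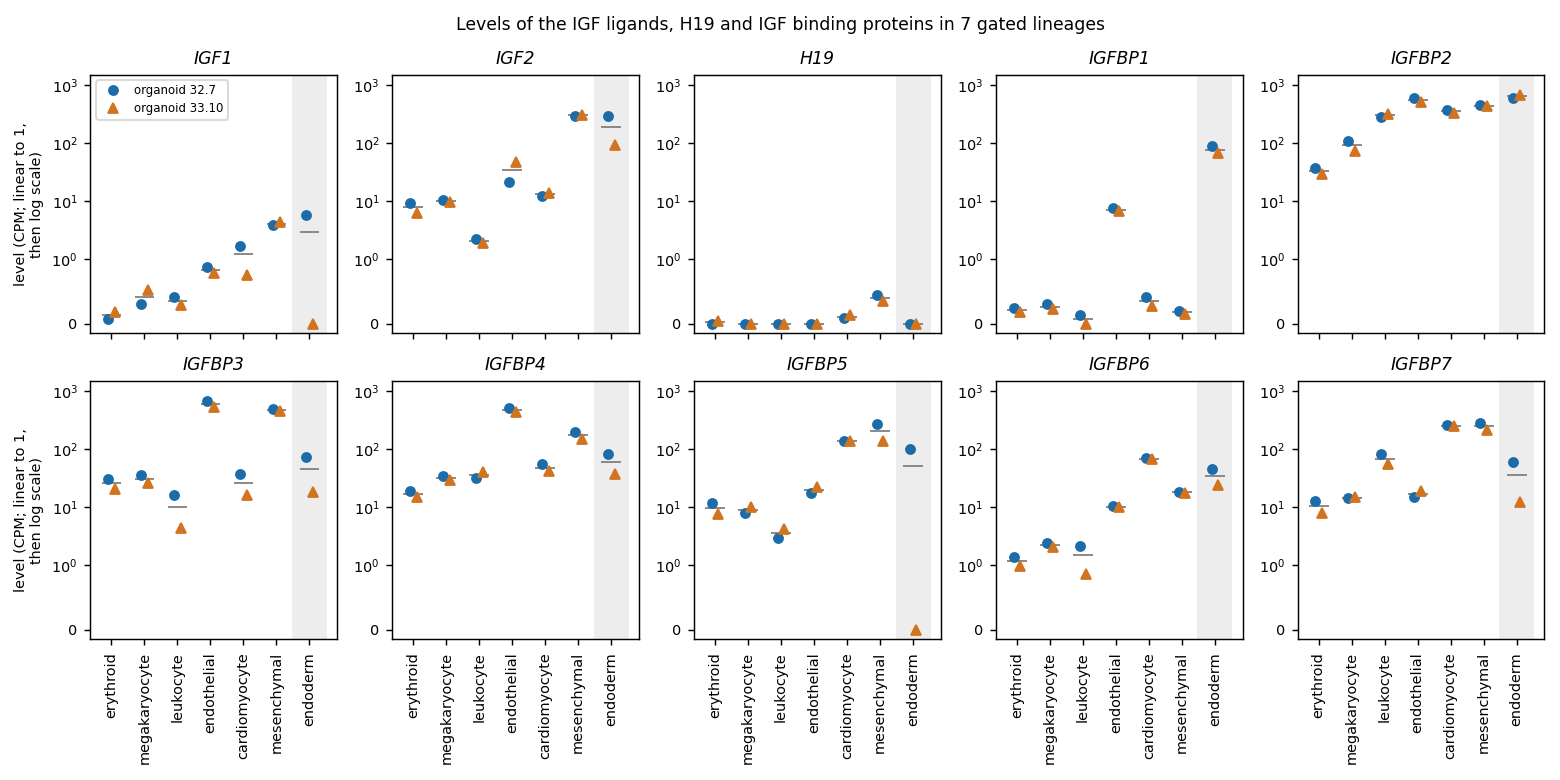
Level of each gene (CPM, linear up to 1 and logarithmic above) in the 7 gated lineages, with organoid 32.7 as circles, organoid 33.10 as triangles and the mean as a bar. The shaded endoderm column rests on 9 cells in organoid 33.10. IGF2 was highest in mesenchymal cells (292 and 300.3 CPM), IGFBP1 in the endoderm (86.8 and 66.5 CPM) and IGFBP6 in cardiomyocytes (68.7 and 66.9 CPM), while H19 did not exceed 0.442 CPM.

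Each binding protein had its own order of lineages. *IGFBP1* (chr7:45888360-45893660), which the liver secretes when insulin is low, was highest in the AFP-gated endoderm with 86.8 and 66.5 CPM. Endothelial cells held 7.47 and 6.81 CPM, and no other lineage exceeded 0.415 CPM. The endoderm and the endothelium were separated from each other and from the rest in both organoids. *IGFBP1* was higher in the endoderm by 7.60 on the log2 scale (SE 0.25, edgeR adjusted p = 2.24e-10) and in endothelial cells by 3.54 (SE 0.21, edgeR adjusted p = 2.02e-08), and it was the only one of the 9 genes tested that was lower in mesenchymal cells (-2.62, SE 0.40, edgeR adjusted p = 0.000132). The mesenchymal call was lost once 10% of each sum had been removed in proportion to the library's profile, a rough allowance for free RNA (edgeR adjusted p = 1, range over the alternatives 4.33e-08 to 1). That removal left mesenchymal cells no UMI of *IGFBP1*, so it cannot show whether the call holds. Few cells carried *IGFBP1*. A UMI was found in 8.73% of the 126 endoderm cells and 33.3% of the 9, and after thinning in 7% and 28.6%. In the endothelium it was found in 8.89% and 6.71% of cells and in 2.09% and 1.69% after thinning, against none of the thinned leukocytes. With the endoderm left out of the fit, the calls of lower *IGFBP1* in erythroid cells, megakaryocytes and cardiomyocytes were lost (log2 differences -0.59, -0.49 and -0.29, edgeR adjusted p = 0.391, 0.448 and 0.659), where the alternatives ranged from 0.000526 to 1.

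*IGFBP2* (chr2:216632828-216664436), a binding protein of fetal tissue and plasma, was present in every lineage. It stood at 591 and 677 CPM in the endoderm, 582 and 513 CPM in endothelial cells and 446 and 423 CPM in mesenchymal cells. In the endoderm of organoid 33.10 a single cell held 97 of the 112 UMIs. Cardiomyocytes held 371 and 326 CPM, leukocytes 280.0 and 315 CPM, megakaryocytes 109 and 71.3 CPM and erythroid cells 36.7 and 29.2 CPM. No neighbours in this order overlapped, but the place of the endoderm in organoid 33.10 rests largely on that single cell. In the endoderm the gene was higher by 1.42 (SE 0.16, edgeR adjusted p = 2.68e-05), a call that did not hold under every alternative (range 8.36e-15 to 0.217). The gene was higher in endothelial cells by 1.22 (SE 0.14, edgeR adjusted p = 1.03e-05) and in mesenchymal cells by 0.83 (SE 0.14, edgeR adjusted p = 0.000419), and lower in erythroid cells (-2.93, SE 0.20, edgeR adjusted p = 1.42e-07). In leukocytes and cardiomyocytes it was higher by 0.46 (edgeR adjusted p = 0.0202 and 0.0187), calls that were lost when cells of several gates were assigned (0.10 in both, edgeR adjusted p = 0.535 and 0.539, the highest over the alternatives, with 8.66e-06 and 3.57e-06 the lowest).

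*IGFBP3*, the main carrier of IGF in adult plasma, and *IGFBP4*, an inhibitor that *PAPPA* cuts, both had their highest level in endothelial cells. *IGFBP3* stood at 677 and 527 CPM there and at 489 and 448 CPM in mesenchymal cells. In the other lineages it ranged from 4.33 to 73.5 CPM. Its log2 difference was 3.63 in endothelial cells (SE 0.29, edgeR adjusted p = 2.85e-07) and 3.21 in mesenchymal cells (SE 0.29, edgeR adjusted p = 1.24e-06). *IGFBP4* stood at 507 and 439.6 CPM in endothelial cells and at 197 and 148 CPM in mesenchymal cells, with 14.9 to 82.7 CPM elsewhere. Its log2 difference was 3.15 in endothelial cells (SE 0.15, edgeR adjusted p = 1.72e-09) and 1.46 in mesenchymal cells (SE 0.16, edgeR adjusted p = 7.38e-06). For both genes the endothelium and the mesenchyme stood apart from each other and from the rest in both organoids.

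*IGFBP5* and *IGFBP6*, the latter a binding protein with a preference for IGF-2, were higher in cardiomyocytes, as was *IGFBP7*. *IGFBP5* stood at 272 and 136 CPM in mesenchymal cells and at 135 and 136 CPM in cardiomyocytes, so that these overlapped. Cardiomyocytes thus reached 49.6% and 100.6% of the mesenchymal level, where *COL1A1* stood at 6.42% and 6.77% of it and *COL1A2* at 12.7% and 18.4%. The other lineages held 2.88 to 22.3 CPM, apart from the endoderm with 101 CPM in organoid 32.7 and no UMI in organoid 33.10. The log2 difference was 3.19 in mesenchymal cells (SE 0.25, edgeR adjusted p = 3.72e-07) and 2.50 in cardiomyocytes (SE 0.27, edgeR adjusted p = 5.19e-06). In endothelial cells it was -0.74 (SE 0.33, edgeR adjusted p = 0.079, and 0.0358 with the organoid as a block, range over the alternatives 0.00215 to 0.652). The call in the endoderm (1.58, edgeR adjusted p = 0.0198) rests on organoid 32.7, since organoid 33.10 alone gave -7.83 from its count of 0.

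*IGFBP6* stood at 68.7 and 66.9 CPM in cardiomyocytes, 45.1 and 24.2 CPM in the endoderm, 17.9 and 17.8 CPM in mesenchymal cells and 10.2 and 10.1 CPM in endothelial cells, with no overlap between these. In the endoderm a single cell held 37 of the 54 UMIs of organoid 32.7, and organoid 33.10 gave 4 UMIs. Blood lineages held 0.866 to 2.39 CPM. Of the 9 genes tested, *IGFBP6* had the largest difference in cardiomyocytes (3.42, SE 0.14, edgeR adjusted p = 3.83e-10). A UMI was found in 34.8% and 40.2% of cardiomyocytes, and in 15.7% and 13.6% after thinning, against 0.531% and 0.460% of thinned erythroid cells. It was also higher in mesenchymal cells (1.17, SE 0.15, edgeR adjusted p = 3.43e-05) and in the endoderm (2.57, SE 0.27, edgeR adjusted p = 2.03e-05), where the call was lost without the deepest 10% of cells (1.32, edgeR adjusted p = 0.0759, range over the alternatives 1.67e-22 to 0.0759).

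*IGFBP7* (chr4:57030773-57110385) encodes a related secreted protein of the vessel wall that binds IGF weakly. It stood at 255 and 244 CPM in cardiomyocytes and at 275 and 215 CPM in mesenchymal cells, which overlapped, and at 81.9 and 54.1 CPM in leukocytes. Endothelial cells held 14.8 and 19.2 CPM, and the difference there was negative (-1.90, SE 0.25, edgeR adjusted p = 3.27e-05), a call that was lost when the library's profile was removed (-1.51, edgeR adjusted p = 1, range over the alternatives 7.97e-11 to 1). It was higher in cardiomyocytes by 2.63 (SE 0.18, edgeR adjusted p = 8.27e-08) and in mesenchymal cells by 2.60 (SE 0.18, edgeR adjusted p = 1.02e-07). In leukocytes it was higher by 0.73 (SE 0.21, edgeR adjusted p = 0.00997), a call that ended when cells of several gates were assigned (-0.02, edgeR adjusted p = 0.962, range over the alternatives 0.000138 to 0.962).

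The promoters of 4 binding proteins, from RefSeq on GRCh38.p14, are shown. *IGFBP3* and *IGFBP4* had their highest level in endothelial cells, and *IGFBP5* and *IGFBP6* were among those higher in cardiomyocytes. *IGFBP2* and *IGFBP7* were also higher in cardiomyocytes and are not shown. Each promoter covers 250 bases before to 50 bases after the start used in the RefSeq entry, 5′ to 3′ on the strand of the gene. For *IGFBP3* and *IGFBP6* the gene begins farther upstream in GENCODE 44, at chr7:45921874 and chr12:53097436. Capitals mark TATAAA (the TATA box), CCGGAA (the core bound by ETS factors) or AGATAA (bound by GATA factors), searched on both strands. No match overlapped another.
IGFBP3 promoter, chr7:45921223-45921522, minus strand: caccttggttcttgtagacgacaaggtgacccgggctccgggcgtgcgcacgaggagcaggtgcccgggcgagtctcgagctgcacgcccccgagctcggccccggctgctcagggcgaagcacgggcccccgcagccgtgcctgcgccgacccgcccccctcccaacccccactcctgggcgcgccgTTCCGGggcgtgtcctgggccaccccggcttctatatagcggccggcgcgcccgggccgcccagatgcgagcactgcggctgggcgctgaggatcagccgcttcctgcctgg
IGFBP4 promoter, chr17:40443200-40443499, plus strand: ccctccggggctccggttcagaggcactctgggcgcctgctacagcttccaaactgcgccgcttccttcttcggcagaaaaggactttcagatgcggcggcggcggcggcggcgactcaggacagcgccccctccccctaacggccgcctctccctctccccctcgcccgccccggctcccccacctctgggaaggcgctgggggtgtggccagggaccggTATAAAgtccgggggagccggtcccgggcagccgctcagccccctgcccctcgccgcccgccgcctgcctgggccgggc
IGFBP5 promoter, chr2:216695500-216695799, minus strand: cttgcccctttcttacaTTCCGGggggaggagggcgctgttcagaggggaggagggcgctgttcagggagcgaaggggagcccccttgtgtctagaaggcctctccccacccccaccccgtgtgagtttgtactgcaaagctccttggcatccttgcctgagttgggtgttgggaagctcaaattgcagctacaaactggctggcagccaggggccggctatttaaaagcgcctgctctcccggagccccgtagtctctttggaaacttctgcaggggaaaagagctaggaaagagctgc
IGFBP6 promoter, chr12:53097417-53097716, plus strand: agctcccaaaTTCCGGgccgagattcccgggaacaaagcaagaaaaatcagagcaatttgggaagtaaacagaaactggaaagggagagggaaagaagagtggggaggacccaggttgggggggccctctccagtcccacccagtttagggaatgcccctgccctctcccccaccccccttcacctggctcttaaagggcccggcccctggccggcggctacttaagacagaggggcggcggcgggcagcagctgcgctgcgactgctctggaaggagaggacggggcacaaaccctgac

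*IGFBP3*, *IGFBP5* and *IGFBP6* each held CCGGAA once, read on the opposite strand as TTCCGG, and *IGFBP4* held TATAAA once. AGATAA occurred in no window shown. These letters are common: of 35116 promoters of the same length 17.25% held CCGGAA, 11.53% TATAAA and 10.33% AGATAA. The dinucleotide CG occurred 36 times in the window of *IGFBP3* and 30 times in that of *IGFBP4*, and 9 and 12 times in those of *IGFBP5* and *IGFBP6*, against a median of 14 over all promoters. Promoter entries existed for 7 of the 10 genes. On the chromosomes, *IGFBP1* and *IGFBP3* lie 18.584 kb apart on chromosome 7 and *IGFBP2* and *IGFBP5* lie 7.668 kb apart on chromosome 2, and in neither pair was the same lineage highest.

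Counted over the 9 genes tested, the mesenchyme had the most calls of higher level. Of the 9 genes 8 were higher and 1 lower in mesenchymal cells, against 29.6% and 15.8% of all 21325 genes tested, and their median log2 difference was 2.35 against 0.12 over all genes. In endothelial cells 4 were higher, 1 was lower and 4 did not pass (background 28.3% and 23.3%), with a median of 0.40 against 0.03. In cardiomyocytes 4 were higher, 4 lower and 1 did not pass (29.7% and 24%), with a median of 0.29 against 0.04, and in the endoderm 6 were higher and 3 did not pass (11.9% higher and 10.9% lower over all genes), with a median of 1.58 against -0.14. Of the endoderm calls, those of *IGF1* and *IGFBP5* rest on organoid 32.7, since organoid 33.10 gave no UMI. A single cell held most endoderm UMIs of *IGFBP2* in organoid 33.10 and of *IGFBP6* in organoid 32.7. Of the 8 calls in cardiomyocytes 4 were left when cells of more than 1 gate were assigned and 4 when the library's profile was removed, where *IGF2* (1.46) and *IGFBP4* (0.11) changed sign without passing. Over all genes 10378 of 22423 and 10969 of 21216 were called in cardiomyocytes in these settings. The share of higher calls in endothelial cells and cardiomyocytes was thus nearer to the background than that in the mesenchyme. Each comparison uses the same 14 sums, so that a gene that is high in 1 lineage is drawn lower in the others.

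Blood cells were low in nearly all of these genes. All 9 were lower in erythroid cells (background 29.4% lower and 23% higher), with log2 differences between -2.93 and -1.11 and a median of -1.89 against -0.16 over all genes. In megakaryocytes 8 were lower (23.4% lower and 25.1% higher), with a median of -1.46 against -0.01, and *IGF1* did not pass (-0.996, SE 0.43, edgeR adjusted p = 0.0712). In leukocytes 7 were lower (25%) and 2 higher (28.3%), with a median of -2.49 against -0.02. The largest falls in leukocytes were those of *IGF2*, of *IGFBP5* (-3.44, SE 0.47, edgeR adjusted p = 4.05e-05) and of *IGFBP1* (-3.37, SE 0.58, edgeR adjusted p = 0.000306), the last of which was lost when the library's profile was removed (edgeR adjusted p = 1, range 5.15e-05 to 1). When 10% of each sum was taken away in proportion to the profile of the whole library, as a rough allowance for free RNA, edgeR made 5 calls in erythroid cells, 3 in leukocytes and none in megakaryocytes, where 0 genes had an unadjusted p under 0.05 and DESeq2 on the sums as counted called 7. Over all 21216 genes tested after the removal, 9978, 9938 and 9280 were called in the same order of lineages. DESeq2 called 10372 of 21325 genes in megakaryocytes. The removal left leukocytes no UMI of *IGF2*, *IGFBP1* and *IGFBP5*. Where it empties sums in this way, the counts of calls cannot show whether a low level holds.

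**Figure D2:**
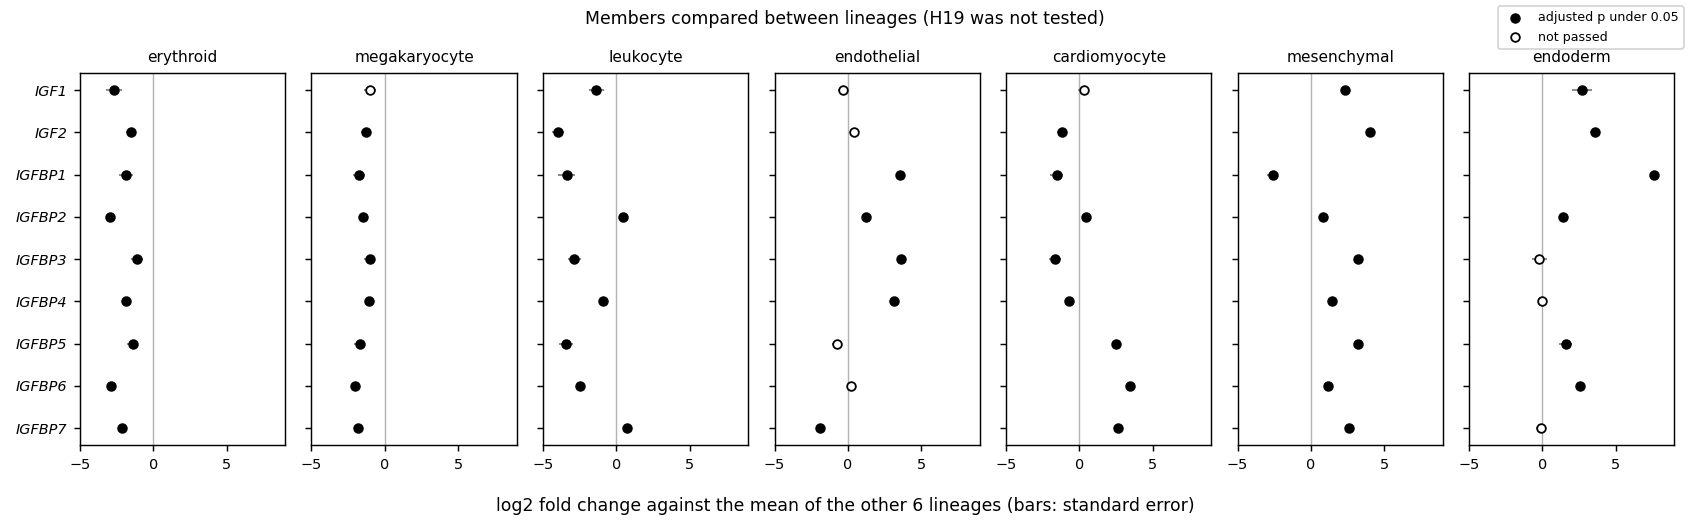
Log2 difference of each gene between 1 lineage and the mean of the other 6 (x axis, bars are the standard error), with filled points for an edgeR adjusted p under 0.05 and open points for genes that did not pass. Mesenchymal cells lay to the right for 8 of 9 genes, with IGFBP1 at -2.62 the exception, and all 9 lay to the left in erythroid cells.

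Within the endothelium, *IGFBP3* and *IGFBP7* marked opposite sides. *CDH5* cells with *CXCR4* (at least 2 UMIs) and no *NR2F2* were compared with *CDH5* cells with *NR2F2* and no *CXCR4*, since these genes are known from arterial and venous endothelium. The first held 980 and 832 cells and the second 357 and 330 cells, with median depths of 14868.5 and 12879 against 12678 and 11018.5 UMIs. *IGFBP3* stood at 984 and 783 CPM in the *CXCR4* cells and at 60.5 and 47.1 CPM in the *NR2F2* cells.

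The groups did not overlap and differed by 4.16 on the log2 scale (SE 0.46, edgeR adjusted p = 0.000117). A UMI of *IGFBP3* was found in 95.3% and 92.5% of the *CXCR4* cells and in 20.4% and 20.6% of the *NR2F2* cells, and after thinning in 76.4% and 71.0% against 9.30% and 7.34%, with 3.11% and 0.923% of thinned leukocytes as a low reference. *IGFBP7* ran the other way, with 6.33 and 8.62 CPM in the *CXCR4* cells and 37.0 and 53.2 CPM in the *NR2F2* cells (-2.47, SE 0.30, edgeR adjusted p = 0.000202). *IGFBP1* was higher in the *CXCR4* cells, with 9.47 and 8.29 CPM against 2.61 and 0.951 CPM (2.40, SE 0.49, edgeR adjusted p = 0.00603). So 2 genes were higher and 1 lower, against 10.3% and 9.92% of all 18031 genes tested, and the median of the 9 was -0.06 against 0.03. The other 6 did not pass, among them *IGFBP4* with 465 and 413 CPM against 666 and 553 CPM (-0.35, SE 0.19, edgeR adjusted p = 0.23).

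Single endothelial cells varied widely in *IGFBP3*. The median cell held 3.79 and 2.63 UMIs per 10000, the 90th percentile was 17.0 and 13.8, and the highest count in a cell was 191 and 139 UMIs. *IGFBP5* was likewise uneven in the mesenchyme, where the median cell held none and the 90th percentile was 9.99 and 4.44 UMIs per 10000. The *IGF2* count was more even, with a median of 2.47 and 2.63 and a 90th percentile of 7.13 and 7.72 UMIs per 10000 in mesenchymal cells.

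Within the mesenchyme, *COL3A1* cells with *LUM* (at least 5 UMIs) were compared with *COL3A1* cells with *WT1* and no *LUM*, since *WT1* is known from the epicardium and septum transversum. *IGFBP3* stood at 725 and 758 CPM in the *LUM* cells and at 192 and 270.0 CPM in the *WT1* cells (1.75, SE 0.41, edgeR adjusted p = 0.0333). *IGF1* was higher in the *WT1* cells, at 5.92 and 5.93 CPM against 2.53 and 2.48 CPM (-1.17, SE 0.30, edgeR adjusted p = 0.0475). Neither pair of groups overlapped, but DESeq2 called neither gene (adjusted p = 0.135 for *IGFBP3* and 0.285 for *IGF1*, the highest over the alternatives, with 2.85e-25 and 0.0202 the lowest), and it called none of the 9, with 4 at an unadjusted p under 0.05. Over all genes DESeq2 called 878 of 18031.

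*IGFBP5* stood at 176 and 93.7 CPM in the *LUM* cells and 542 and 247 CPM in the *WT1* cells. The difference of -1.47 (SE 0.43) did not pass without a block (edgeR adjusted p = 0.0824) and passed with the organoid as a block (0.00906, range over the alternatives 8.61e-17 to 0.323). The same held for *IGFBP4* (0.58, edgeR adjusted p = 0.132, and 0.0281 with the block, range 0.00175 to 0.142). Without the block 1 gene was higher and 1 lower, against 2.51% and 2.52% of all genes, with a median of 0.03 against -0.00, and with it 4 of the 9 were called. Over all genes 1605 of 18031 were called with the block. *IGF2*, at 329.96 and 341 CPM against 272 and 295 CPM, did not pass (0.30, SE 0.34, edgeR adjusted p = 0.769), with a UMI in 52.8% and 56.5% of the thinned *LUM* cells and 45.7% and 51.3% of the thinned *WT1* cells.

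Among leukocytes, *PTPRC* cells with *C1QA* (at least 3 UMIs), a complement gene of macrophages, were compared with those without. *IGFBP4* stood at 53.8 and 62.8 CPM in the *C1QA* cells and at 11.6 and 17.3 CPM in the others (2.09, SE 0.23, edgeR adjusted p = 0.000153). *IGFBP7* had the opposite order, with 30.5 and 25.3 CPM against 129 and 86.1 CPM (-1.91, SE 0.28, edgeR adjusted p = 0.000962). Neither gene overlapped between the groups. After thinning, a UMI of *IGFBP4* was found in 11.3% and 17.3% of the *C1QA* cells and 3.36% and 5.84% of the others, and one of *IGFBP7* in 5.33% and 4.49% against 22.5% and 11.7%. The median depths were 17879 and 16271 against 18960 and 17443 UMIs. With 1 higher and 1 lower (9.23% and 6.93% of all genes) and a median of 0.09 against 0.01, the other 7 did not pass.

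**Figure D3:**
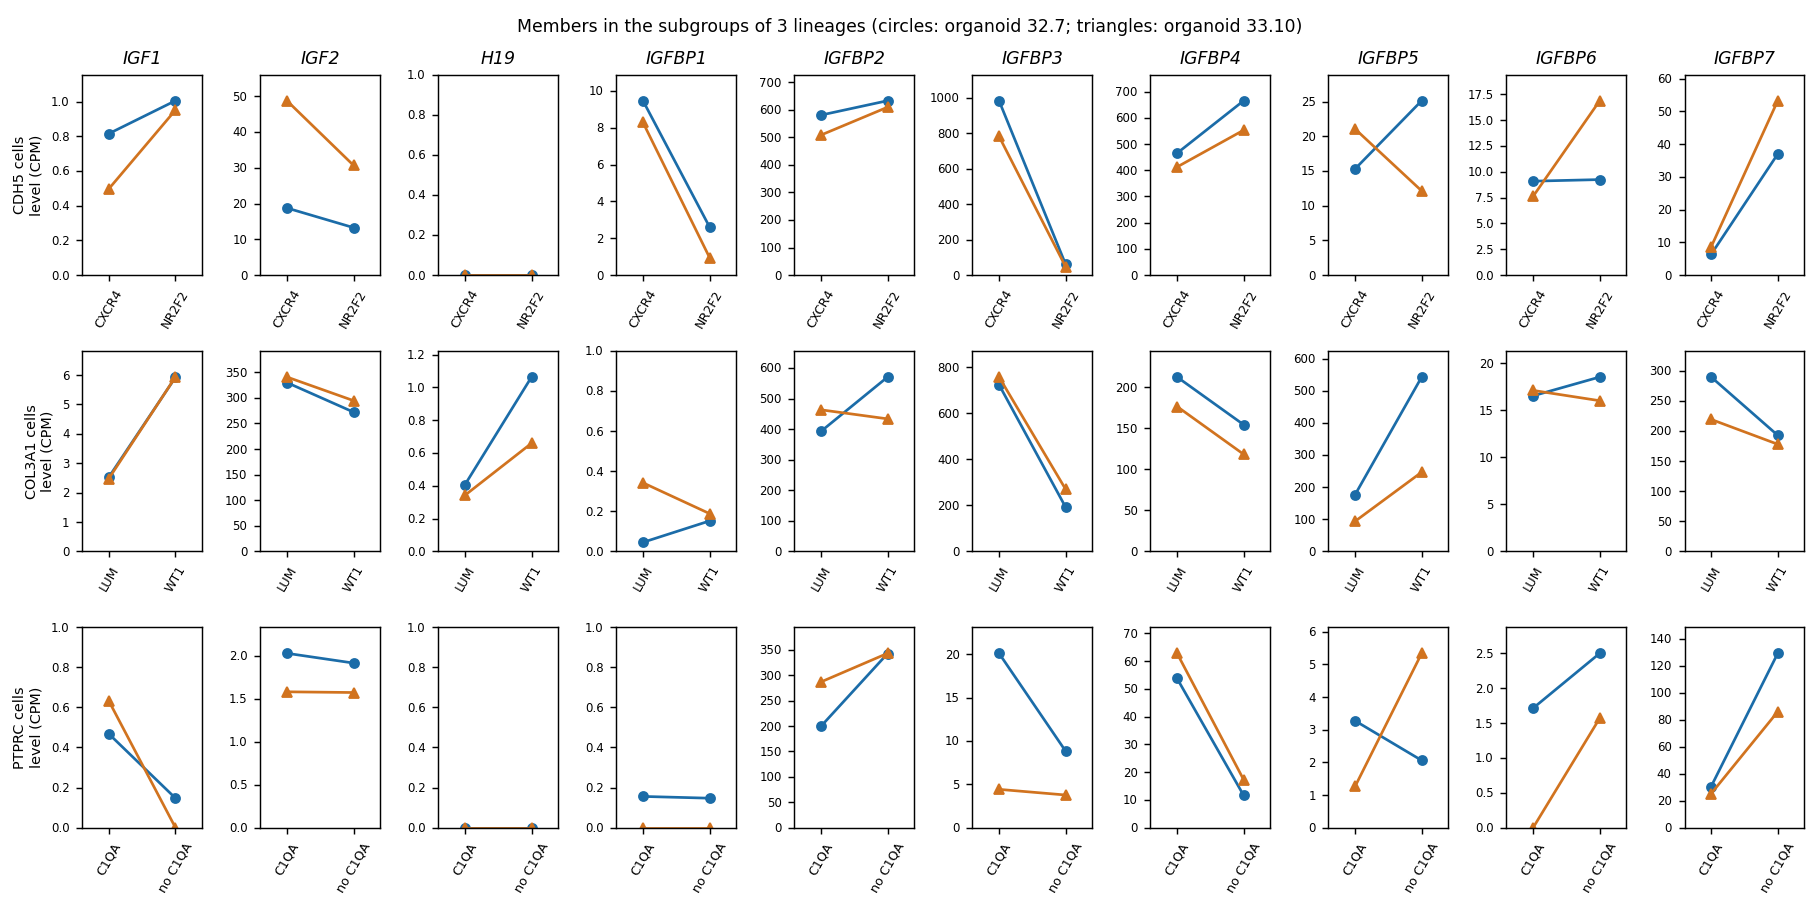
Level (CPM, linear axis from 0) of each gene in the subgroups of the endothelium (CDH5), mesenchyme (COL3A1) and leukocytes (PTPRC), with a line per organoid (circles 32.7, triangles 33.10). IGFBP3 fell from 984 and 783 CPM in CXCR4 cells to 60.5 and 47.1 CPM in NR2F2 cells, and IGFBP4 and IGFBP7 ran in opposite directions between leukocytes with and without C1QA.

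The cells that held each gene's UMIs show where its transcripts lay in the organoid as dissociated. Mesenchymal cells, with 23.8% and 19.2% of all UMIs, held 67.8% and 59.5% of those of *IGF2*, 50.3% and 43.3% of those of *IGF1* and 57.1% and 39.9% of those of *IGFBP5*. Endothelial cells, with 16.2% and 11.0% of all UMIs, held 39.9% and 49.0% of *IGFBP1* and 39.7% and 33.5% of *IGFBP4*. Although the endoderm had the highest level of *IGFBP1*, it held 18.0% and 3.10% of its UMIs. Cardiomyocytes, with 6.32% and 6.25% of all UMIs, held 23.9% and 25.3% of *IGFBP6*. Mesenchymal cells held 23.5% and 20.6% of it, and cells of more than 1 gate 31.5% and 35.1%. For *IGFBP3*, whose level was highest in endothelial cells, these held 33.4% and 25.1% of the UMIs and mesenchymal cells 35.3% and 37.0%. Cells that passed more than 1 gate, which can be doublets, held 23.3% and 27.1% of all UMIs and were left out of the lineages.

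**Figure D4:**
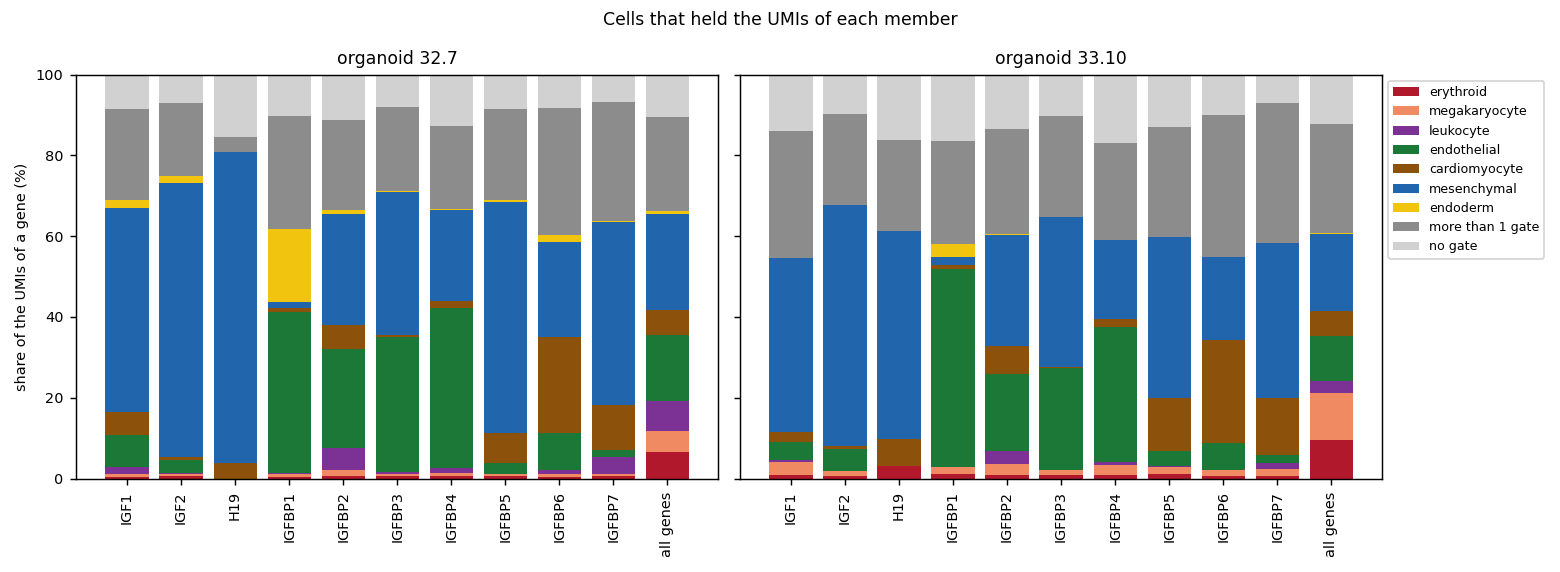
Share of the UMIs of each gene (%, stacked to 100) held by each lineage, by cells of more than 1 gate and by cells of no gate, with all genes as the last bar, for each organoid. Mesenchymal cells held 67.8% and 59.5% of the IGF2 UMIs against 23.8% and 19.2% of all UMIs.

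Receptors and other genes of the pathway had their own pattern. Of 12 listed genes 11 were tested between lineages (*IGFALS*, the acid-labile subunit, was too low). *STC1*, whose product inhibits *PAPPA*, stood at 521 and 349 CPM in endothelial cells and no more than 129 CPM elsewhere (3.43, SE 0.28, edgeR adjusted p = 4.67e-07), and *INSR*, the insulin receptor, at 207 and 213 CPM there (2.02, SE 0.10, edgeR adjusted p = 3.07e-09). Both were also higher in the *CXCR4* than the *NR2F2* cells, *STC1* by 2.87 (SE 0.25, edgeR adjusted p = 2.21e-05) and *INSR* by 2.46 (SE 0.17, edgeR adjusted p = 4.54e-06). *IGF2R* was higher in endothelial cells by 0.84 (SE 0.09, edgeR adjusted p = 3.88e-06).

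The proteases *PAPPA* and *HTRA1* were highest in the mesenchyme. *PAPPA* stood at 61.2 and 51.5 CPM there (3.55, SE 0.24, edgeR adjusted p = 7.04e-08), and *HTRA1*, which also cuts binding proteins, at 159.8 and 123 CPM (3.13, SE 0.18, edgeR adjusted p = 1.98e-08), which overlapped the 124 and 112.5 CPM of cardiomyocytes. Of the adaptors below the receptors, *IRS1* was highest in cardiomyocytes (63.0 and 93.1 CPM, 3.20, SE 0.18, edgeR adjusted p = 1.02e-08) and *IRS2* in megakaryocytes (40.7 and 28.0 CPM, 2.46, SE 0.21, edgeR adjusted p = 7.27e-07). *IGF1R*, the receptor of both ligands, was present in all lineages (72.6 to 207 CPM) and was higher in megakaryocytes by 0.79 (SE 0.12, edgeR adjusted p = 0.000113).

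Counted over the 11 genes, 6 were higher and 5 lower in endothelial cells (median 0.36), 5 higher in cardiomyocytes (0.55), 4 higher and 2 lower in mesenchymal cells (0.38), and 4 higher and 1 lower in the endoderm (0.40). Over all genes 28.3% were higher and 23.3% lower in endothelial cells (median 0.03), 29.7% and 24% in cardiomyocytes (0.04), 29.6% and 15.8% in mesenchymal cells (0.12) and 11.9% and 10.9% in the endoderm (-0.14). In the blood lineages 1 was higher and 6 lower in erythroid cells (-0.52), 3 higher and 5 lower in megakaryocytes (-0.37) and 1 higher and 8 lower in leukocytes (-1.29), where the shares over all genes were 23% and 29.4% (-0.16), 25.1% and 23.4% (-0.01), and 28.3% and 25% (-0.02). Between subgroups 10 were tested: 5 were higher and 2 lower in the *CXCR4* cells (0.80), 1 was higher and 2 lower in the *C1QA* leukocytes (0.07, and 5 called with the organoid as a block), and edgeR and DESeq2 called none between *LUM* and *WT1* cells (0.05), with 3 at an unadjusted p under 0.05 in each. The shares of all genes higher and lower were 10.3% and 9.92% (median 0.03), 9.23% and 6.93% (0.01), and 2.51% and 2.52% (-0.00) in the same order. With the organoid as a block 4022 of 18031 genes were called between the leukocytes.

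Other imprinted genes were counted beside *IGF2* and *H19*. Of 11 listed, 9 were tested, since *PEG3* had no UMI and *NNAT* was too low. In mesenchymal cells 7 were higher and 1 lower (median 1.76), against 29.6% and 15.8% of all genes (0.12). *MEST* stood at 408 and 381 CPM there (3.72, SE 0.13, edgeR adjusted p = 4.48e-10), *DLK1* at 3032 and 2361 CPM (3.08, SE 0.19, edgeR adjusted p = 3.49e-08), *PEG10* at 519 and 409 CPM (3.57, SE 0.20, edgeR adjusted p = 1.22e-08) and *KCNQ1OT1*, from the same arm of chromosome 11 as *IGF2*, at 395 and 357 CPM (2.03, SE 0.08, edgeR adjusted p = 1.21e-09). *PEG10* was also higher in cardiomyocytes (3.34, SE 0.20, edgeR adjusted p = 1.84e-08) and the endoderm (3.00, SE 0.25, edgeR adjusted p = 2.22e-06). *DLK1* was also higher in megakaryocytes (2.57, SE 0.19, edgeR adjusted p = 2.03e-07) and erythroid cells (1.05, SE 0.21, edgeR adjusted p = 0.00119). *MEST* and *KCNQ1OT1* were also called higher in other lineages, by no more than 1.02. *GRB10*, an adaptor that damps insulin and IGF receptor signals, was the gene lower in mesenchymal cells (-1.21, SE 0.12, edgeR adjusted p = 4.05e-06). It was highest in endothelial cells, at 353 and 412 CPM (2.69, SE 0.09, edgeR adjusted p = 1.83e-10).

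Elsewhere 2 of the 9 were higher and 5 lower in endothelial cells (median -1.83), 3 and 5 in cardiomyocytes (-0.60), 5 and 2 in the endoderm (1.02), 3 and 4 in erythroid cells (-0.77), 2 and 4 in megakaryocytes (-0.50) and 1 and 7 in leukocytes (-1.20). The shares over all genes in that order were 28.3% and 23.3% (0.03), 29.7% and 24% (0.04), 11.9% and 10.9% (-0.14), 23% and 29.4% (-0.16), 25.1% and 23.4% (-0.01), and 28.3% and 25% (-0.02). Of 8 tested between subgroups, 1 was higher and 2 lower in the *CXCR4* cells (-0.19), 2 higher in the *LUM* cells (0.72, and 4 called with the organoid as a block) and 5 lower in the *C1QA* leukocytes (-0.96), against 10.3% and 9.92% (0.03), 2.51% and 2.52% (-0.00), and 9.23% and 6.93% (0.01) of all genes. With the block 1605 of 18031 genes were called between *LUM* and *WT1* cells. Which allele the UMIs came from was not measured.

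The genes most like each member in pattern were sought by Pearson's r of log2(CPM + 10) over the 14 sums, given as a description, since the sums of an organoid share a library. *IGF2* was followed most closely by *AC132217.1*, which overlaps it (r = 0.996), then by the matrix genes *BGN* (0.986) and *MFAP2* (0.959). *IGFBP3* was most like *CDH13* (0.977), *TRIM46* (0.976) and *EBF1* (0.975), and *IGFBP4* was most like *FSCN1* (0.993), *DCBLD1* (0.982) and *TPBG* (0.978). For *IGFBP5* they were *NR2E3* (0.984), *SLC4A4* (0.977) and *ADAMTS13* (0.976), for *IGFBP6* *ACACB* (0.980), *ROR1* (0.979) and *PPIL6* (0.979), and for *IGFBP7* *EPHB2* (0.960), *MATN2* (0.958) and *IQSEC2* (0.951). Some of these genes were scarce in every lineage: *NR2E3* did not exceed 1.74 CPM, *TRIM46* 5.53 CPM and *ADAMTS13* 5.98 CPM. These levels lie below the 10 CPM added, so that their r rests on small differences.

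*IGFBP2* was most like *ERLIN2* (0.962), *CANX* (0.959) and *EIF4EBP2* (0.957), and *IGF1*, at its low level, most like *IL1R2* (0.984), *VWA2* (0.983) and *AC009230.1* (0.979). The genes most like *IGF1* did not exceed 5.01 CPM in any lineage. The nearest to *IGFBP1* were *FOXJ1* (0.996), *SNTG1* (0.994) and *PRRG2* (0.987), which rested in part on the endoderm sums, since without them r was 0.954, 0.915 and 0.826. *H19* did not pass the filter, and its nearest genes are not given.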

How the data were processed

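Single cells of 2 BG-HFOs (organoids 32.7 and 33.10, day 14) were sequenced with a 3′ droplet kit, 1 library per organoid. The labels do not say whether the organoids came from separate differentiations, so p-values measure only the spread between them. The values used are the deposited UMI counts of each gene in each barcode, whole numbers without scaling, which the authors made with Cell Ranger 7.0.0 on GRCh38 with intronic reads included. The study later equalized depth, removed free RNA and filtered cells, and none of this is in these counts. The 10 genes and all gene lists were chosen with earlier results of these data known.

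Cells with 50 to 11000 genes and under 30% mitochondrial UMIs were kept, as in the study. A cell entered a lineage if it reached the UMI threshold of 1 gate gene (*HBZ* 30, *PF4* 10, *PTPRC* 3, *CDH5* 2, *MYH6* 5, *COL3A1* 5, *AFP* 10) and of no other. Subgroups needed 2 UMIs of *CXCR4* or *NR2F2*, 5 of *LUM*, 1 of *WT1* or 3 of *C1QA*. No doublet caller was run, and cells of more than 1 gate were left out. For shares, each cell was thinned to 2500 UMIs and shallower cells were left out.

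UMIs were summed per lineage (14 sums) or subgroup and organoid, since cells are not replicates, and tested with edgeR's quasi-likelihood test (edgeR 4.0.16, R 4.3.3, TMM, filterByExpr), a lineage against the mean of the other 6. Adjusted p-values are Benjamini-Hochberg values over all genes tested, with a threshold of 0.05, and the standard error is the log2 difference divided by the square root of F. Intervals are exact Poisson 95% intervals, and a count of 0 was given a limit of 3 counts. Lineages of an organoid come from the same culture and so are paired: deviations from lineage means correlated at 0.2266 to 0.5514 between the 6 larger lineages, and at -0.0513 to 0.0283 with the endoderm.

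Alternatives were halved and doubled thresholds, assigning cells of more than 1 gate to the gate whose UMIs were highest relative to its threshold, no cell filter, leaving out the deepest 10% of cells, removing 10% of each sum in proportion to the library's profile, DESeq2 size factors and the DESeq2 test (DESeq2 1.42.0), no low-count filter, the organoid as a block, each organoid alone, means over single cells and thinned levels. Removing the profile left a sum without UMIs of a gene where it took more than the sum held. A test on such sums cannot show whether a low level holds. Leaving out the endoderm was added after seeing the data. Named genes were the 10, the gate, subgroup and marker genes, the pathway and imprinted lists, genes that overlap *IGF2*, and the 3 genes most alike in pattern (r over log2(CPM + 10)). *COL1A1* and *COL1A2* are mesenchymal markers. Gene positions and overlaps are from GENCODE 44, promoters from RefSeq (GRCh38.p14).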

Additional observations from a re-analysis of the deposited data

How the results depend on the processing

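Of 954 log2 differences recomputed with a test under the alternatives (90 for the IGF genes and 16 for pathway and imprinted genes in the main fits), 845 kept their direction and their side of the threshold, 65 lost the call, 21 gained one and 23 changed sign. The cause was not tested for any of them. The endoderm limits every value that includes it, since organoid 33.10 gave it 9 cells, and depth limits *H19* and *IGF1*. With 1 organoid left out there is no test.

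The number of all genes called in the endoderm was 2722 without the deepest 10% of cells (4859 as reported). Between *LUM* and *WT1* cells it was 1907 with no low-count filter and 1605 with the organoid as a replicate block (906 as reported). Of the 9 IGF genes, assigning cells of more than 1 gate left 5 called in erythroid cells, 3 in megakaryocytes and 4 in cardiomyocytes, against 9, 8 and 8. Over all genes 8949, 8281 and 10378 of 22423 were called in that setting, against 11192, 10345 and 11449 of 21325 as reported. Removing 10% of the ambient profile left 5, 0 and 4 of the 9 in the same order of lineages (edgeR, 0 of the megakaryocyte genes at an unadjusted p under 0.05) and 3 in leukocytes against 9, and leaving out the deepest cells left 5 in leukocytes. Over all genes the removal left 9978, 9280 and 10969 of 21216 called, and 9938 in leukocytes. Without the deepest cells 9250 of 20534 were called in leukocytes, against 11379 of 21325 as reported. Between *LUM* and *WT1* cells 4 were called with no low-count filter, 4 with the block and 0 with DESeq2 (4 at an unadjusted p under 0.05), against 2, and between leukocytes with and without *C1QA* 4 were called with no low-count filter, against 2. Over all genes 1907 of 31060, 1605 of 18031 and 878 of 18031 were called between *LUM* and *WT1* cells, against 906 of 18031. Between the leukocytes 3556 of 31060 were called, against 2914 of 18031. The block otherwise added the call of *IGFBP5* in endothelial cells and changed no other call of the IGF genes.

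Signs changed as follows. After removal of the ambient profile some lineages held no UMI of a gene, as leukocytes for *IGF2*. Removing the ambient profile gave 0.45 for *IGF1* and 0.84 for *IGFBP5* in endothelial cells, 1.46 for *IGF2* and 0.11 for *IGFBP4* in cardiomyocytes, 0.21 for *IGFBP2* and 0.33 for *IGFBP3* in megakaryocytes, and 3.96 for *IGFBP3*, 1.01 for *IGFBP4* and 2.11 for *IGFBP7* in the endoderm. Assigning cells of more than 1 gate gave -0.50 for *IGF2* and -0.34 for *IGFBP6* in endothelial cells and -0.022 for *IGFBP7* in leukocytes. Leaving out the endoderm, chosen after seeing the data, gave 0.14 for *IGF1* in endothelial cells. In cardiomyocytes *IGF1* was -0.026 with halved and -0.32 with doubled thresholds. In the endoderm *IGFBP4* was 0.014 and *IGFBP7* 0.15 with doubled thresholds, *IGFBP3* was 0.16, *IGFBP4* 0.22 and *IGFBP7* 0.43 without the deepest cells, *IGFBP4* was 0.067 and *IGFBP7* 0.0026 with DESeq2 size factors, and *IGFBP4* was 0.0029 with the DESeq2 test. None of *IGFBP3*, *IGFBP4* and *IGFBP7* had passed in the endoderm. With each organoid alone, *IGF1* in the endoderm ranged from -2.97 to 2.88 and *IGFBP5* from -7.83 to 2.09, where a count of 0 makes the value depend on the prior count. Of 66 mean levels, 38 moved by more than the spread between organoids with single-cell means, 40 with thinned cells and 38 after removal of the ambient profile.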
